A study of Mus musculus with 16 samples.

Results

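The 31 genes of ribosome biogenesis described here were followed through 8 mouse tissues under fed and fasting conditions. The genes were chosen by symbol, and their identifiers picked out 31 of the 55385 rows of the count table, of which 37084 held a count in at least 1 library. Lung, kidney, spleen, heart, liver, muscle and both white and brown adipose were taken from male wild-type C57BL/6 mice, bought at 12 weeks of age, that either had free access to chow (fed) or went without food for 24 h (fasting). RNA came from equal parts of tissue of the 3 mice of a group, and each tissue and treatment gave 1 short-read RNA-Seq library, 16 in all, so that no value within a tissue has a replicate error. The same 3 fed and 3 fasting mice gave all tissues. Library totals ran from 14245178 to 36069968 counts, and the lowest count of any of the 31 genes in any library was 27 (Gar1, fed muscle). Levels are given as CPM, the count of a gene relative to the total of its library.

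Ribosomes are assembled mainly in the nucleolus. RNA polymerase I transcribes the long precursor of the ribosomal RNAs, small nucleolar ribonucleoproteins (snoRNPs) of the box C/D and box H/ACA kinds guide its methylation and pseudouridylation, and large sets of processing factors cut and fold it into the small and the large subunit. The process consumes much of the energy of a growing cell. Myc, a transcription factor of cell growth, is known to drive many of these genes by binding, together with its partner Max, to a short DNA motif called the E-box.

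Because Myc was itself 1 of the 31 genes, the E-box in its best known form, CACGTG, was looked up in the promoters of the others. The motif reads the same on both strands. Promoter windows of 300 bases (250 before and 50 after the start of the gene, RefSeq, GRCm38.p6) matched 25 of the 31 genes, and Myc, Fbl, Npm1, Bop1, Rrs1 and Rrp12 were not matched. At least 1 CACGTG lay in the windows of 5 of the 25 (20%), against 8.09% of the 27025 genes of the table and 7.15% of its 32851 windows. The 6 sites are shown, 30 bases each on the strand of the gene, with the motif in capitals, because they are the matches to the motif that Myc is known to bind.
Nop2, chr6:125131811-125131840, + strand: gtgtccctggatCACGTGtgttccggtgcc
Utp20, chr10:88826765-88826794, - strand: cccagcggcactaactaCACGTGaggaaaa
Pes1, chr11:3963965-3963994, + strand: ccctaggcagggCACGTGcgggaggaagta
Mybbp1a, chr11:72441347-72441376, + strand: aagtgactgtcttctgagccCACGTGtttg
Rrn3, first site, chr16:13780472-13780501, + strand: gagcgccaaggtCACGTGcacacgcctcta
Rrn3, second site, chr16:13780639-13780668, + strand: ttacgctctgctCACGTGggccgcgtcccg
The motif began 60 bases before the start of Nop2, and 215 and 48 bases before that of Rrn3. It began 2 bases after the start base of Pes1, 37 after that of Utp20 and 40 after that of Mybbp1a. A match is a run of letters and not a measured binding site.

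In fed mice the spleen had the highest level of these genes. The 31 genes summed to 2343.8 CPM in fed spleen and to 815.9 CPM in fed muscle, the lowest sum, with fed liver at 864 CPM and the other tissues between 1086.8 and 1159.4 CPM. Spleen was the fed tissue with the highest level for 24 of the 31 genes, and muscle the one with the lowest level for 16 and liver for 9. Among the genes highest in another fed tissue were Nop10 (73.1 CPM in fed brown adipose against 35.6 in fed spleen), Nhp2 and Npm3 (45.8 and 29.2 CPM in fed kidney against 24.7 and 22.1 in fed spleen) and Rrn3 (94.2 CPM in fed heart against 66.6 in fed spleen), and the others were Rrp12 (muscle), Nop16 (liver) and Rrs1 (white adipose). The range between fed tissues was widest for Myc, at 15.88-fold, and narrowest for Nop16, at 1.97-fold. Per kilobase of exon, the median level over the 16 libraries was highest for Npm1, at 52.1 CPM per kb, followed by Nop10 at 31.1 and Rrp1 at 24.4, and lowest for Gar1, at 1.67. The markers of each tissue's own cells (for example Alb in liver and Myh6 in heart) summed highest in the labelled tissue, and 10 markers of dividing cells summed to 402 CPM in fed spleen against 2.74 CPM in fed muscle.

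**Figure D1:**
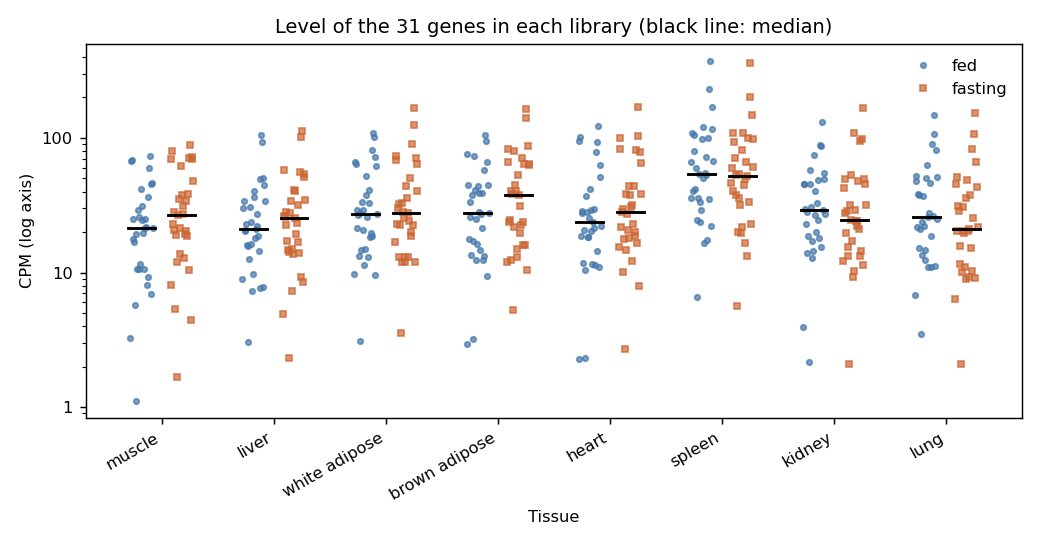
Level of each of the 31 genes (points, CPM on a log axis) in the fed (blue circles) and fasting (orange squares) library of each tissue, with the median of the 31 as a black line. The fed spleen has the highest median, at 53.9 CPM, and fed liver the lowest of the fed libraries, at 21.1 CPM, with fasting lung just below it at 20.9 CPM.

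To ask how fasting changed these genes within a tissue, the fasting library was set against the fed library of the same tissue. A gene was called where the log2 fold change of CPM, with a pseudocount of 0.01 CPM, passed 0.5 in size and Fisher's exact test (two-sided) gave an unadjusted p-value under 0.01. Such a test compares 2 libraries and not the 2 conditions. In bulk tissue, fewer cells of a kind cannot be told apart from less RNA per cell. Of 248 gene and tissue pairs, 28 were called higher in fasting (11.3%, against 7.71% of such pairs over all genes) and 6 lower (2.42%, against 9.81%). Most of the genes lay above 0 on the log2 scale in muscle, brown adipose, liver, white adipose and heart, and below 0 in lung, spleen and kidney, although most values did not pass the call. Over the 31 genes, 14 were called higher in 1 or more tissues (45.2%, against 27.4% of the 11249 genes tested in all 8) and 5 lower in 1 or more (16.1%, against 35.9%). Myc and Gar1 were in both of these counts. The other 14 were called in no tissue, as were 44.9% of all these genes.

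In muscle, 25 of the 31 genes lay above 0 on the log2 scale, 7 were called higher (7.8% of the 13263 genes tested there were) and 1 was called lower (16.2% of all genes). The median of the 31 was 0.28 in muscle, against -0.138 over all genes. In brown adipose, 26 genes lay above 0, 8 were called higher (8.71% of all genes) and none lower (12.2% of all genes), with a median of 0.29 against -0.025. In heart, 20 genes lay above 0, 6 were called higher (6.88% of all genes) and none lower (9.65%), with a median of 0.09 against -0.063. As shares of the 31, the genes called higher came to 22.6% in muscle, 25.8% in brown adipose and 19.4% in heart, each above the share of all genes. These calls rest on counting error alone. Where pools were taken to vary with a CV of 0.2 (exact test of edgeR), 3, 2 and 1 of them were left. That test was run on the 31 genes alone, so whether they still exceed the share of all genes is not known.

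In liver, 2 genes were called higher (7.15% of all genes) and 1 lower (15.8%), and the median was 0.08 against -0.127. With TMM factors, which moved all log2 values in liver by 0.124, 4 were called higher (10% of all genes) and the median was 0.20. In liver 21 of the 31 genes lay above 0, and in white adipose 21 also. In white adipose, 3 were called higher, which is 9.68% of the 31 and below the 18.9% of all genes, and none lower (9.14% of all genes). The median in white adipose was 0.06, as over all genes, and turned to -0.05 with the scaling factors of edgeR (TMM), which moved all log2 values there by -0.106. In kidney, 2 were called higher (4.35% of all genes) and 3 lower, which is 9.68% of the 31 against 6.1% of all genes, with a median of -0.10 against -0.056 and 21 genes below 0. With TMM factors 1 was called lower in kidney (4.43% of all genes) and the median was -0.025.

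In lung, 30 of the 31 genes lay below 0, with Npm1 alone above it at 0.07. The median in lung was -0.28, against -0.087 over all genes, but the changes were small, and 1 gene was called lower (9.82% of all genes) and none higher (4.17%). In spleen, 24 genes lay below 0, with a median of -0.15 against -0.018, and no gene was called in either direction (3.53% of all genes were called higher and 2.14% lower). The lung medians stayed below 0 with TMM factors, at -0.2, and the spleen medians too, at -0.13.

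**Figure D2:**
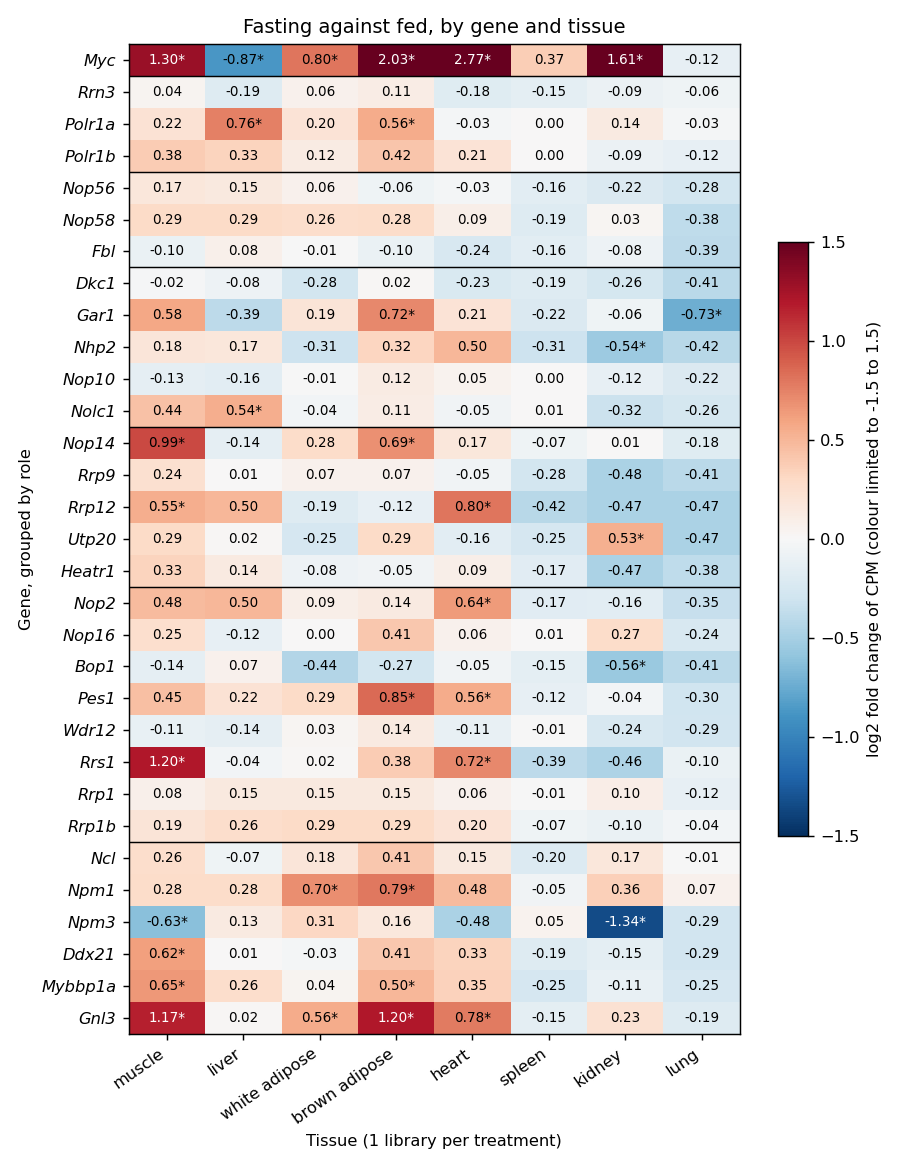
Log2 fold change of CPM, fasting against fed, of each gene (rows, grouped by role) in each tissue (columns), with the value printed in each cell and an asterisk where the gene was called. Red cells gather in muscle, brown adipose and heart, where 7, 8 and 6 genes were called higher, and pale blue cells fill the spleen and lung columns, where 0 and 1 were called.

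**Figure D3:**
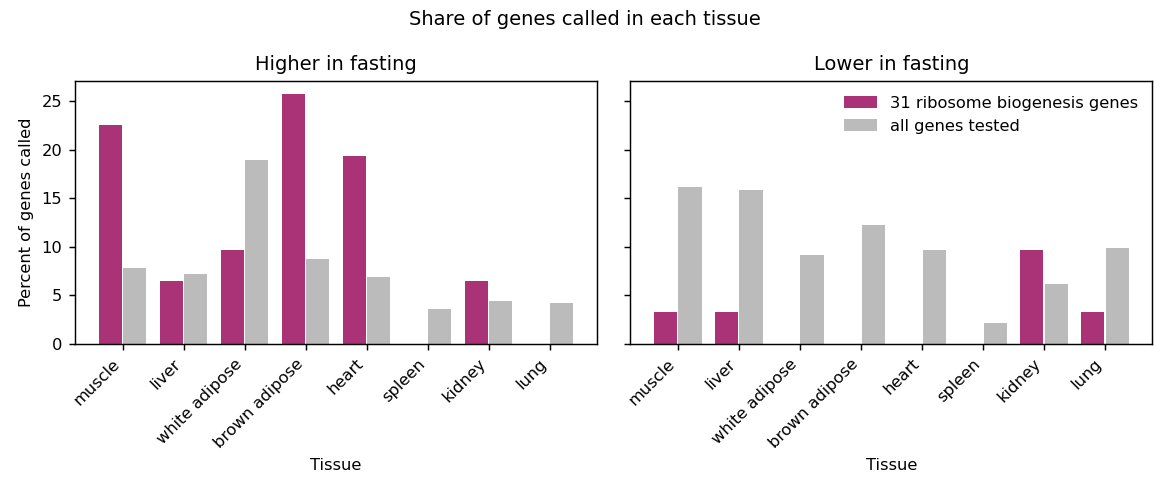
Percent of the 31 ribosome biogenesis genes (purple) and of all genes tested (grey) that were called higher (left) or lower (right) in fasting in each tissue. The 31 genes stand above all genes for calls of a rise in brown adipose (25.8% against 8.71%), muscle (22.6% against 7.8%) and heart (19.4% against 6.88%), and below them in white adipose (9.68% against 18.9%).

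Markers of other cells also differed between the libraries of a tissue. Of 112 pairs of a marker list and a tissue (14 lists), 42 had summed levels that differed by more than 1.5-fold, and in 26 of these 50% or more of the markers passed 0.5 on the log2 scale in that direction, a rule set after the values were seen. In lung, these were T cell markers (104 CPM fed and 30.5 CPM fasting, 8 of 8 lower), B cell markers (296 and 145 CPM, 8 of 8 lower), cardiomyocyte markers (1079 and 569 CPM, 5 of 7 lower), markers of dividing cells (125 and 67.3 CPM, 7 of 10 lower) and adipocyte markers (223 and 374 CPM, 6 of 10 higher). In spleen they were erythroid markers (3871 and 9408 CPM, 8 of 8 higher) and pancreatic acinar markers (574 and 12.2 CPM, 12 of 12 lower), and in kidney markers of dividing cells (22.0 and 14.0 CPM, 5 of 10 lower) and of brown adipocytes (88.7 and 138 CPM, 4 of 5 higher). Most of the brown adipocyte sum in kidney was the single gene Ppara (86.9 and 131 CPM).
Among the tissues in which most of the 31 genes lay above 0, the lists that passed this rule were in muscle markers of cardiomyocytes (98.5 and 50.4 CPM, 5 of 7 lower), T cells (6.19 and 2.75 CPM, 4 of 8 lower), B cells (1.41 and 0.129 CPM, 8 of 8 lower) and acinar cells (1.495 and 0.84 CPM, 6 of 12 lower). In brown adipose they were markers of skeletal muscle fibres (2791 and 1249 CPM, 10 of 10 lower), cardiomyocytes (19.0 and 5.55 CPM, 5 of 7 lower), dividing cells (16.1 and 7.93 CPM, 8 of 10 lower), B cells (9.09 and 4.14 CPM, 6 of 8 lower) and neutrophils (3.01 and 1.12 CPM, 4 of 8 lower). In heart they were hepatocyte markers (31.4 and 103 CPM, 10 of 10 higher) and neutrophil markers (4.36 and 2.42 CPM, 4 of 8 lower), and in liver acinar markers (117 and 256 CPM, 10 of 12 higher) and markers of dividing cells (12.3 and 7.73 CPM, 6 of 10 lower). In white adipose they were lung epithelium markers (3.52 and 129 CPM, 4 of 7 higher), acinar markers (12.4 and 80.3 CPM, 6 of 12 higher), cardiomyocyte markers (6.01 and 11.3 CPM, 4 of 7 higher) and neutrophil markers (1.63 and 0.729 CPM, 4 of 8 lower). The kidney tubule sum there went from 69.9 to 750.5 CPM with 3 of 8 markers higher. Most of these gains in white adipose lay in single genes, Lrp2 of the kidney tubule list (34.95 to 710 CPM), Foxj1 of the lung list (1.76 to 126 CPM) and Cuzd1 of the acinar list (3.22 to 74.1 CPM). Most of the B cell and acinar values in muscle lay near the floor, where 3 counts are 0.125 CPM in the fed library. Lists that did not pass the rule also held markers past 0.5 on the log2 scale. In muscle 5 of 10 adipocyte markers were lower and 1 higher, and their sum went from 543 to 1086 CPM. In heart 7 of 10 markers of dividing cells were lower and 1 higher, and 6 of 10 skeletal muscle fibre markers were higher and 1 lower. The part of these cell types in the results was not tested.

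Myc (ENSMUSG00000022346.15, GRCm38 chr15:61985391-61990374, + strand), the growth regulator, had the largest log2 fold change in size of all 248 pairs, in heart, but in spleen and lung other genes moved further from 0. Myc stood at 3.28 CPM in fed and 8.08 CPM in fasting muscle, 8.99 and 4.93 in liver, 9.75 and 17.0 in white adipose, and 2.95 and 12.1 in brown adipose. In heart Myc went from 2.27 CPM fed to 15.5 CPM fasting, in spleen from 36.0 to 46.4, in kidney from 3.97 to 12.1, and in lung from 6.85 to 6.32. Fasting Myc was thus higher in 6 tissues and lower in liver and lung, and spleen held the highest Myc level under both treatments. The rise was largest in heart, a log2 fold change of 2.77 (95% exact interval 2.28 to 3.31, counting error only), followed by brown adipose at 2.03 (1.57 to 2.52), kidney at 1.61 (1.27 to 1.97), muscle at 1.30 (0.93 to 1.68) and white adipose at 0.80 (0.57 to 1.03). Myc was called lower in liver, at -0.87 (-1.2 to -0.54), against the median of the 31 genes there. It was called neither in spleen (0.37) nor in lung (-0.12). Myc was the gene with the highest log2 fold change of the 31 in muscle, white adipose, brown adipose, heart, spleen and kidney, and the one with the lowest in liver. Fed heart held 39 Myc counts and fed brown adipose 49, so that the depth behind these folds was low.

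**Figure D4:**
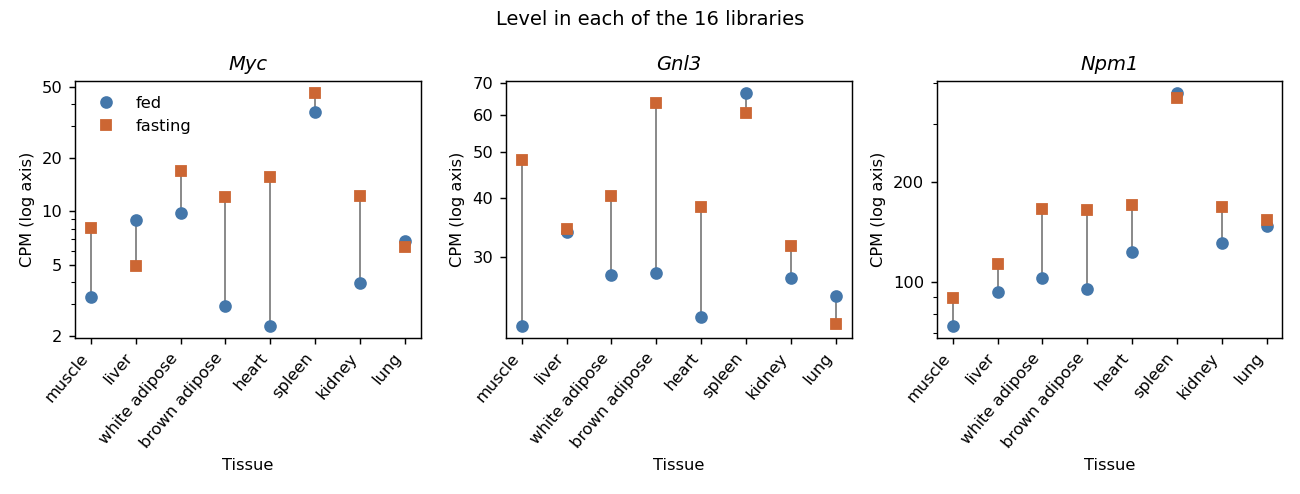
CPM (log axes, a separate range in each panel) of Myc, Gnl3 and Npm1 in the fed (blue circle) and fasting (orange square) library of each tissue, joined by a grey line. Myc lies higher in fasting in 6 tissues and lower in liver, where it went from 8.99 to 4.93 CPM, and Npm1 lies higher in fasting in 7 tissues, all but spleen.

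The genes of RNA polymerase I transcription were called for the largest subunit alone. Polr1a, the largest subunit of the enzyme, went from 34.3 to 58.0 CPM in liver and from 44.6 to 65.9 CPM in brown adipose. Both were called, with log2 fold changes of 0.76 (0.63 to 0.88) and 0.56 (0.42 to 0.71), and the liver value was the highest of the 31 genes in that tissue. Fed liver held the lowest Polr1a level of the 16 libraries, and fasting liver lay near the median over libraries of 64.8 CPM. Polr1b, the second largest subunit, was called nowhere and ranged from -0.12 in lung to 0.42 in brown adipose. Rrn3, the initiation factor that recruits the enzyme to the ribosomal DNA promoter, held the narrowest range of the 3, from -0.19 in liver to 0.11 in brown adipose. Rrn3, whose promoter window has 2 E-boxes, was called nowhere.

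The box C/D snoRNP proteins, which carry out 2′-O-methylation of ribosomal RNA, were called in no tissue. Fbl, the methyltransferase itself, ranged from -0.39 in lung to 0.08 in liver. Nop56 and Nop58, the paralogous core proteins, were set side by side. Nop58 was at 0.29 in muscle, 0.29 in liver, 0.26 in white adipose and 0.28 in brown adipose, while Nop56 was at 0.17, 0.15, 0.06 and -0.06 in the same tissues. Both were below 0 in spleen, at -0.16 for Nop56 and -0.19 for Nop58, and in lung, at -0.28 and -0.38. All values of this group lay under the fold threshold.

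The 5 box H/ACA snoRNP proteins, which carry out pseudouridylation, had 2 calls of a rise and 2 of a fall over the 8 tissues. Neither count exceeds the share of pairs over all genes, 7.71% called higher and 9.81% lower. Gar1, a core protein and the least abundant of the 31 genes per kilobase, went from 3.19 to 5.27 CPM in brown adipose and from 3.49 to 2.11 CPM in lung. These were log2 fold changes of 0.72 (0.20 to 1.26) and -0.73 (-1.17 to -0.29), the latter the lowest of the 31 genes in lung, with 53 to 105 counts behind each value. The brown adipose call was lost when the Fisher p-values were adjusted. In muscle Gar1 was at 0.58, past the fold threshold but not that of the p-value. Nhp2, another core protein, was called lower in kidney, from 45.8 to 31.5 CPM (-0.54), the tissue with its highest fed level, a call lost with TMM factors (-0.46) and DESeq2 size factors (-0.48). Nolc1, a nucleolar chaperone of snoRNPs, was called higher in liver, from 23.6 to 34.2 CPM (0.54). Dkc1, the pseudouridine synthase, and Nop10 were called nowhere, and Dkc1 lay below 0 in 7 of 8 tissues, down to -0.41 in lung.

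Among the factors of small subunit processing, the calls lay in different tissues for different genes. Nop14, a nucleolar protein of the early small subunit precursor, went from 10.7 to 21.3 CPM in muscle, a log2 fold change of 0.99 (0.78 to 1.20), and from 25.2 to 40.6 CPM in brown adipose, 0.69 (0.51 to 0.88). Rrp12, a factor in the maturation and export of subunits, was called higher in heart, from 25.4 to 44.1 CPM (0.80), and in muscle, from 42.0 to 61.7 CPM (0.55), and muscle was also its tissue of highest fed level. Its value was the lowest of the 31 genes in spleen, at -0.42. Utp20, a large scaffold protein of the early precursor, was called higher in kidney, from 74.9 to 108 CPM (0.53), where the median of the 31 genes was below 0. Heatr1, another protein of the early precursor, and Rrp9, a protein of the U3 snoRNP, were called nowhere and were at -0.47 and -0.48 in kidney, just short of the threshold.

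Among the factors of large subunit processing, Rrs1 and Pes1 were the genes with more than 1 call. Rrs1, which brings the 5S ribonucleoprotein into the growing subunit, went from 8.10 to 18.6 CPM in muscle, 1.20 (0.96 to 1.44), and from 11.3 to 18.6 CPM in heart, 0.72 (0.45 to 0.99). In spleen and kidney Rrs1 was at -0.39 and -0.46, not called. Pes1, Bop1 and Wdr12 form a complex (PeBoW) that is needed for processing of the large subunit RNA, yet their values differed. Pes1 was called higher in brown adipose, from 39.1 to 70.5 CPM (0.85), and in heart, from 29.7 to 43.8 CPM (0.56). Bop1 was at -0.27 and -0.05 in those tissues and Wdr12 at 0.14 and -0.11, none of them called. Bop1 was called lower in kidney, from 32.7 to 22.2 CPM (-0.56), a call lost with TMM factors (-0.48). It had the lowest value of the 31 genes in white and in brown adipose, at -0.44 and -0.27, and was called lower in white adipose with TMM factors (-0.55) and DESeq2 size factors (-0.56). Nop2, an RNA methyltransferase, was called higher in heart, from 20.3 to 31.7 CPM (0.64). The paralogs Rrp1 and Rrp1b were called nowhere. Rrp1 stayed between -0.12 in lung and 0.15 in liver, and Rrp1b between -0.10 in kidney and 0.29 in white adipose. Nop16, a nucleolar protein of the large subunit precursor, ranged from -0.24 in lung to 0.41 in brown adipose.

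The 6 nucleolar chaperones and other nucleolar proteins held 9 calls of a rise and 2 of a fall over the 8 tissues. Over all genes, 7.71% of gene and tissue pairs were called higher and 9.81% lower. Gnl3 (nucleostemin, ENSMUSG00000042354.7, chr14:31012433-31019152, - strand), a nucleolar GTP-binding protein, was called in 4 tissues, more than any gene but Myc, although its white adipose call was lost with TMM factors (0.45). Gnl3 went from 21.4 to 48.3 CPM in muscle, from 27.4 to 40.4 in white adipose, from 27.7 to 63.6 in brown adipose and from 22.4 to 38.3 in heart. In liver it stood at 33.9 CPM fed and 34.4 fasting, in spleen at 66.8 and 60.4, in kidney at 27.0 and 31.6, and in lung at 24.8 and 21.7. The log2 fold changes were 1.20 (1.04 to 1.36) in brown adipose, 1.17 (1.03 to 1.32) in muscle, 0.78 in heart and 0.56 in white adipose, and fasting brown adipose reached a Gnl3 level close to that of spleen.

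Npm1 and Npm3, paralogous histone chaperones of the nucleolus, differed. Npm1 (ENSMUSG00000057113.13, chr11:33152287-33163206, - strand) went from 73.4 to 88.9 CPM in muscle, 93.0 to 113 in liver, 102 to 166 in white adipose and 94.95 to 164 in brown adipose. In heart it went from 123 to 171 CPM, in kidney from 131 to 168, in lung from 147 to 154, and in spleen from 373 to 360. Npm1 was thus higher in the fasting library of 7 tissues, and passed the fold threshold in brown adipose, at 0.79 (0.70 to 0.88), and white adipose, at 0.70 (0.63 to 0.77). Npm3 was called lower in kidney, from 29.2 to 11.5 CPM, a log2 fold change of -1.34 (-1.55 to -1.15), and in muscle, from 6.90 to 4.46 CPM, -0.63 (-0.96 to -0.29). The kidney value of Npm3 was the lowest of all 248 pairs, and Npm3 also had the lowest value of the 31 genes in muscle and heart (-0.48, not called). In kidney Npm1 was at 0.36, and in muscle at 0.28.

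Ddx21, an RNA helicase of the nucleolus, was called higher in muscle, from 45.2 to 69.7 CPM (0.62). Mybbp1a, a nucleolar protein that also binds Myb, was called higher in muscle, from 46.3 to 72.8 CPM (0.65), and in brown adipose, from 44.7 to 63.4 CPM (0.50), the latter lost with DESeq2 size factors (0.48). Ncl (nucleolin), the main nucleolar RNA-binding protein, was called nowhere, with values from -0.20 in spleen to 0.41 in brown adipose.

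Of the 5 genes whose promoter windows hold CACGTG, shown above, Nop2, Utp20, Pes1 and Mybbp1a were called higher in 1 or more tissues and none was called lower. Of the 20 matched genes without it, 6 were called higher and 3 lower in 1 or more tissues. Of all genes tested in the 8 tissues, 27.4% were called higher and 35.9% lower in 1 or more. Nop2 and Pes1 were called in heart, Pes1 and Mybbp1a in brown adipose, Mybbp1a in muscle and Utp20 in kidney, and Rrn3 in no tissue. These counts are too few to set the groups apart and are given as a description.

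Another feature that several of the genes share is that they carry snoRNA genes in their introns or other parts. By the GENCODE annotation (vM21, GRCm38, same strand), 5 of the 31 genes (16.1%) held 16 snoRNA genes, against 1.18% of 21951 protein-coding genes. These were Nop56 with 5, Nop58 with 4, Ncl and Gnl3 with 3 each, and Dkc1 with 1. Of these 5 hosts, Gnl3 alone was called in any tissue, where 44.9% of all genes tested in the 8 tissues were called in none. Exonic bases of 14 of the 31 genes were also covered by a gene on the opposite strand, at most 7.08% of the gene (Npm3), and of 4 by snoRNA or miRNA genes on the same strand, at most 8% (Nop56). The paper describes the libraries as strand-specific, but how the strand was treated in counting was not given in the sources used here. For Npm3 the opposite gene held 10 counts in fed and 2 in fasting kidney, against 655 and 296 for Npm3. For Mybbp1a, 2.26% of whose exonic bases are shared, the opposite gene Spns2 went from 1992 to 6961 counts in muscle, so that the higher muscle count of Mybbp1a is uncertain by the reads of Spns2 it could hold. In white adipose, where Spns2 went from 667 to 2647 counts, Mybbp1a was at 0.04.

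To ask which genes moved in the same direction over tissues, the quasi-likelihood test of edgeR was run on all 16 libraries with tissue as a block and treatment as the term tested. The p-values were adjusted by Benjamini-Hochberg over 17296 genes. Tissues take the place of replicates here, although the animals behind them are the same. By edgeR, Npm1 was the only one of the 31 genes called, with a log2 fold change of 0.40 (SE 0.09), an adjusted p of 0.0373 and a higher fasting level in 7 of 8 tissues. Calls of a rise made up 2.31% of all genes and calls of a fall 2.08%. The Npm1 call was not robust. Its adjusted p was 0.00206 with DESeq2, 0.0563 with edgeR on library totals alone, 0.037 with robust dispersion, 0.0403 with no filter on low counts, and 0.0508 with the filter on low counts taken over tissue and treatment, an alternative added after the data were seen. Leaving out 1 tissue at a time gave edgeR adjusted p-values from 0.0266 (without spleen) to 0.0959 (without heart), above 0.05 in all but the former, with log2 fold changes from 0.35 to 0.46. Without white adipose it was 0.0661.

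No gene of the 31 was called lower across tissues by edgeR, on library totals or by DESeq2. By unadjusted edgeR p-values under 0.05, 6 of the 31 lay higher (10.6% of all genes did) and 1 lower (13.1% of all genes). The 6 were Npm1, Gnl3, Myc, Polr1a, Pes1 and Polr1b, and the 1 was Bop1, at -0.20 (SE 0.09), which lay below 0 in 7 of 8 tissues. Gnl3 had a log2 fold change of 0.49 (SE 0.17) and an edgeR adjusted p of 0.117, and Myc one of 0.97 (SE 0.34) and 0.125. With DESeq2 the adjusted p of Myc was 0.0293 and that of Gnl3 0.0628. Under the alternatives, the adjusted p of Myc ran from 0.0293 to 1 and that of Gnl3 from 0.0628 to 1, the highest from the fit without the tissue block. In all, 20 of the 31 genes had an estimate above 0 and 11 below it, with a median of 0.11 against -0.011 over all genes.

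**Figure D5:**
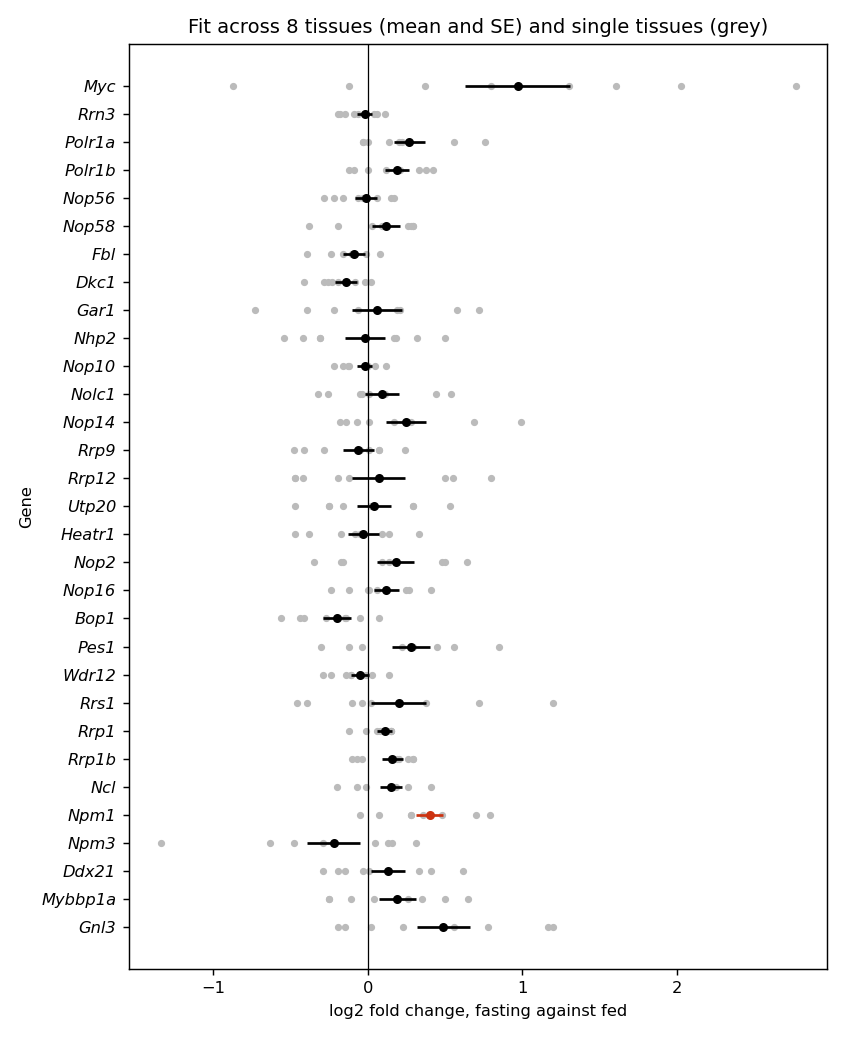
Log2 fold change of each gene, fasting against fed, in the fit across 8 tissues (points with bars of 1 SE, red where the edgeR adjusted p was under 0.05) with the values of the single tissues as grey points. Npm1, at 0.40, is the red point, and the grey points of Myc spread from -0.87 in liver to 2.77 in heart.

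Whether the response in a tissue differed from that in the other 7 was tested with an interaction term in edgeR, which takes the spread in that tissue from the others. None of the 31 genes was called in any tissue by edgeR, on library totals or by DESeq2. Over all genes the interaction was called for 0.052% in muscle, 0.295% in liver, 3.82% in white adipose, 0.00578% in brown adipose and 0% in heart, spleen, kidney and lung. By unadjusted edgeR p-values under 0.05 there were 3 genes in muscle (Nop14, Rrs1 and Ddx21), 3 in liver (Polr1a, Nolc1 and Myc), 1 in heart (Myc), 1 in kidney (Npm3) and none in the other tissues. Over all genes the same threshold was passed by 7.46% in muscle, 9.93% in liver, 13.3% in white adipose, 5.98% in brown adipose, 3.75% in heart, 1.86% in spleen, 2.08% in kidney and 1.8% in lung. In total 8 of the 248 pairs passed it (3.23%), fewer than the 5.77% of pairs over all genes. The largest of these by size were Myc in heart, 2.08 above the other tissues (SE 0.92, adjusted p of 1 by edgeR), and Myc in liver, at -1.95 (adjusted p of 0.503). For Npm3 in kidney the difference was -1.24 (SE 0.34, edgeR adjusted p of 1). This test takes single genes and 1 tissue at a time, so that the difference between tissues in the side of 0 on which most of the genes lay was not tested.

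Over 30 genes, leaving out Myc, the log2 fold changes of muscle and heart had a Pearson r of 0.748 and those of white and brown adipose one of 0.7, while muscle and spleen gave -0.43 and heart and spleen -0.47. The median over 28 pairs of tissues was 0.232, and 4 pairs were below 0. These values are across genes, which are not independent replicates, and the same mice lie behind all tissues.

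Other genes of the pathway were read from lists of known factors. Across tissues, none of 13 other RNA polymerase I genes, 44 other small subunit factors, 49 other large subunit factors, 9 snoRNP assembly factors and 11 tested exosome genes was called by edgeR in either direction. DESeq2 called 1 higher and 1 lower of the small subunit factors and 3 higher and 1 lower of the large subunit factors, and none of the other lists, against 4.84% of all genes higher and 5.67% lower by DESeq2. At an unadjusted edgeR p under 0.05, the large subunit list had 7 higher and 2 lower, the small subunit list 7 and 2, the RNA polymerase I list 3 and 0, and the snoRNP assembly and exosome lists 0 and 1 each, where 10.6% of all genes lay higher and 13.1% lower. Within tissues, the median of these 126 genes had the sign of that of the 31 in each tissue. It was 0.19 in muscle, 0.13 in brown adipose, 0.12 in heart, 0.04 in white adipose and 0.01 in liver, and -0.12 in spleen, -0.13 in kidney and -0.18 in lung. In muscle 19 of the 126 (15.1%) were called higher and 1 lower, in brown adipose 9 (7.14%) and 2, in heart 5 (3.97%) and 1, and in lung 0 and 7 (5.56%). In liver 6 (4.76%) were called higher and 2 lower, in white adipose 6 (4.76%) and 5 (3.97%), in kidney 0 and 4 (3.17%), and in spleen none. The share called higher was above that of all genes in muscle (7.8%). In brown adipose and heart it was not above that of all genes, 8.71% and 6.88%, unlike that of the 31. In liver and white adipose it was also below that of all genes, 7.15% and 18.9%. The shares called lower in lung, kidney and white adipose lay below the 9.82%, 6.1% and 9.14% of all genes.

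Of the relatives and partners of Myc (11 tested), edgeR called Mlxip and Mxi1 higher and Mlxipl lower across tissues, where 2.31% of all genes were called higher and 2.08% lower. Mlxip, a glucose-sensing factor of the Mlx branch, had a log2 fold change of 0.51 (SE 0.06, edgeR adjusted p of 0.00324), and was above 0 in 8 of 8 tissues. Mxi1, an antagonist of Myc that binds Max, had one of 0.42 (SE 0.08, edgeR adjusted p of 0.0227). Mlxipl (ChREBP), which turns on lipogenic genes when glucose is high, had one of -0.57 (SE 0.14, edgeR adjusted p of 0.0494), with values down to -1.35 in liver. Max itself was at 0.34 (SE 0.09), with an adjusted p of 0.0557 by edgeR and 0.0141 by DESeq2, which called it higher. The largest estimate of the list was that of Mycl, a relative of Myc, at 1.09 (SE 0.38), not called (adjusted p of 0.119 by edgeR and 0.0616 by DESeq2), with 5.96 CPM in fed and 59.7 CPM in fasting brown adipose.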

How the data were processed

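Short-read RNA-Seq of 16 pooled libraries (8 tissues, fed and fasting) was used. The authors used fastp 0.23.2 for trimming, FastQC 0.11.8 for quality, HISAT2 2.2.1.0 for alignment (GRCm38) and featureCounts (Subread 2.0) for gene counts. They deposited raw counts per gene and library, not normalized, and the authors also gave an exon length per gene (an other value, used only for levels per kilobase). Whether reads or pairs were counted is not given in the sources used here. Library totals lay between 14245178 and 36069968. Intervals cover counting error only.

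Gene symbols came from GENCODE vM21 by identifier (55144 of 55385 matched). CPM used library totals, and genes with a mean of at least 1 CPM in the 2 libraries of a tissue were tested there, which all 31 passed in every tissue. The fits across tissues used edgeR 4.0.16 (R 4.3.3) with TMM factors and filterByExpr by treatment, with 7 residual degrees of freedom, or 6 for the interaction. The alternatives used DESeq2 1.42.0, other scalings, filters, pseudocounts and tests, and each tissue left out in turn. On simulated counts, the fit across tissues recovered 187 of 200 genes changed by a log2 of 1 (5 false calls among 16814 genes), the interaction of white adipose 127 of 200 changed by a log2 of 2 (12 false among 16796), and Fisher's test in liver 185 of 200 changed by a log2 of 1 (31 false among 13644). The counts simulated for Fisher's test varied by counting error alone, so its false calls do not cover differences between pools. The remaining work was done in Python 3.11.15 with scipy 1.17.1, pandas 2.3.3, numpy 2.4.6 and matplotlib 3.10.9.

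The members and the pathway and marker lists were chosen with earlier results of these data known. All 31 genes were accounted for. Values in every library were given for genes called across tissues and for Myc, the highest and lowest gene was named in each tissue, together with genes called against its median, paralog pairs were set side by side, and of each pathway list the 2 genes with the largest changes among those called across tissues were named. Further genes, such as Gnl3 in every library, and Mxi1, Max and Mycl, were named after their values were seen.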

Additional observations from a re-analysis of the deposited data

How the results depend on the processing

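Within tissues, the calls rest on counting error. Where pools were assumed to vary by a coefficient of 0.2 (exact test of edgeR), 7 of the 28 calls of a rise and 1 of the 6 of a fall were left. They were 3 in muscle, 2 in brown adipose, 1 in heart, 1 in kidney and 0 in liver and white adipose for a rise, and 1 in kidney and 0 in muscle, liver and lung for a fall. At 0.4, 1 call of a rise (heart) was left, with 0 in muscle, liver, white adipose, brown adipose and kidney, and 0 of a fall in muscle, liver, kidney and lung. The count of rises in muscle went from 7 to 10, that in heart from 6 to 8 and that in white adipose from 3 to 2 (Gnl3 lost) with TMM or DESeq2 factors. That in brown adipose went from 8 to 7 with DESeq2 factors, totals without the 10 highest genes or a pseudocount of 1 CPM (Mybbp1a lost) and with adjusted p-values (Gar1 lost). With TMM factors, 4 genes were called higher in liver, 1 lower in white adipose (Bop1) and 1 lower in kidney (Nhp2 and Bop1 lost). DESeq2 size factors gave 4 in liver and 1 lower in white adipose, and totals without the 10 highest genes gave 4 higher in liver and 1 lower in heart. TMM factors moved all log2 values by 0.124 in liver, 0.076 in muscle, 0.058 in heart and -0.106 in white adipose. This moves the share of all genes called as well. That share is given with TMM factors only for rises in liver and falls in kidney, so the other changed counts cannot be set against it.

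Across tissues, the count of genes called higher was 2 with DESeq2 (Npm1 and Myc) and 0 on library totals alone, with the filter by tissue and treatment added after seeing the data, without the tissue block and without both adipose tissues. The fits without 1 of the tissues gave 0 to 1. Of the other small subunit factors, DESeq2 called 1 higher and 1 lower and the fit on library totals 1 lower, and of the other large subunit factors DESeq2 called 3 higher and 1 lower. Of the Myc relatives DESeq2 called 3 higher (with Max) and 1 lower. The tissue block pairs the fed and fasting library of a tissue, and no other pairing was given by the labels.

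With 1 library per treatment, 27 to 105 counts lie behind some values of Myc and Gar1, and tissues of the same mice are not independent animals.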
